A study of Homo sapiens with 6 samples.

Results

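The ERK feedback regulators and ETV factors are 10 human genes, chosen by symbol from the 20026 gene rows with a unique identifier: the phosphatases DUSP4, DUSP5 and DUSP6, the Sprouty genes SPRY1, SPRY2 and SPRY4, the Sprouty-related genes SPRED1 and SPRED2, and the transcription factors ETV4 and ETV5. They were followed in 3 stable lines of HCT116, a human colon carcinoma cell line, with 2 RNA sequencing libraries a line. One line over-expressed TEAD4 K178R, a mutant of the transcription factor TEAD4 with arginine in place of a lysine. A second over-expressed wild type TEAD4, and the third was labelled control, with titles that carry the letters PQ. Whether a line was 1 clone or a pool, and what PQ stands for, is not stated in the labels, and libraries of a line are not said to be separate cultures. The p-values therefore cover the spread between libraries alone, which may be technical. With 1 line per construct, the construct, the level of TEAD4 and other traits of a line cannot be told apart. A gene said to rise or fall with K178R or wild type TEAD4 differed between that line and control.

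The RAS to ERK cascade relays signals from growth factor receptors through RAF and MEK to the kinases ERK1 and ERK2. Active ERK raises the transcription of its own brakes. DUSP6 removes phosphate from ERK mainly in the cytoplasm, DUSP5 does so in the nucleus, and DUSP4 is a nuclear phosphatase that also acts on other MAP kinases. Sprouty proteins damp signalling between receptors and RAF, and SPRED proteins bring the RAS inhibitor neurofibromin to the membrane. ETV4 and ETV5 are ETS factors of the PEA3 group, whose transcription follows FGF and ERK signalling and is held down by the repressor CIC. The 10 genes are widely read as a transcriptional trace of ERK output. The phosphorylation of ERK was not measured here.

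Levels are FPKM, fragments scaled to transcript length and library size, so they can be set side by side between genes. By the pile-up of low values at single fragments, 1 fragment in a transcript of 2 kb was worth very roughly 0.021 to 0.027 FPKM in these libraries. TEAD4 itself stood at 71.2 to 72.3 FPKM in the K178R line, 84.4 to 86.4 in the wild type line and 16.6 to 17.5 in control. For wild type replicate 2 the genotype label names TEAD5, while its title names TEAD4, and results are also given without it where it mattered. Of 11 colon epithelial markers, 6 were above 1 FPKM in all libraries, EPCAM, CDH1, KRT8, KRT18, KRT19 and CDX2, while CDX1 was at 0 in all libraries. VIL1, CDH17 and LGALS4 reached at most 0.0293, 0.0221 and 0.0666 FPKM, and KRT20 ranged from 0.641 to 3.25. Summed over all 11, the epithelial markers reached 2854 to 2887 FPKM in K178R, 1797 to 1851 in wild type and 2636 to 2682 in control. Most of each sum came from KRT8, KRT18 and KRT19. KRT8 and KRT18 averaged 1381 and 890 FPKM in K178R, 770 and 457 in wild type, and 1298 and 691 in control. Of 16 leukocyte, fibroblast and endothelial markers, 3 passed the filter on low values, and CD3E, COL1A2, DCN and LUM were at 0 in all libraries. The 3 were CD68, COL1A1 and ESAM, which supplied nearly all of the leukocyte, fibroblast and endothelial sums that follow. In K178R, wild type and control, CD68 averaged 1.21, 2.83 and 3.28 FPKM and COL1A1 1.72, 3.63 and 1.62. ESAM averaged 1.39, 2.12 and 1.98 FPKM in that order. Summed, the 5 leukocyte markers reached 1.28 to 1.29 FPKM in K178R, 2.71 to 3.04 in wild type and 3.16 to 3.63 in control. The 6 fibroblast markers reached 1.73 to 1.88 FPKM in K178R, 3.64 to 3.78 in wild type and 1.53 to 1.76 in control, and the 5 endothelial markers 1.37 to 1.52 in K178R, 1.97 to 2.46 in wild type and 2.02 to 2.13 in control. The part of these marker differences in the results was not tested. In such bulk libraries, fewer cells that express a gene and less RNA per cell cannot be told apart.

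All 10 genes passed that filter, at least 0.5 FPKM in at least 2 libraries, which 11445 genes did. Differences are on the log2(FPKM + 1) scale, which understates the change of low genes, and were tested with limma, with Benjamini-Hochberg adjustment over all genes tested and a threshold of 0.05. In the K178R line 6 of the 10 were higher than in control and 1 was lower, against 11.7% and 11.1% of all genes tested. In the wild type line 8 were higher than in control and 1 was lower, against 37.6% and 12.2% of all genes. The median difference of the 10 genes was 0.27 in each line against control, and that of all genes tested was 0.0025 in K178R and 0.09 in wild type. Both comparisons use the same control libraries, so they are not independent of each other. With 2 libraries a group, the smallest permutation p of a comparison is 0.333, so values without overlap are a description only. Between the 2 TEAD4 lines, 2 genes stood higher and 2 lower in the K178R line, against 10.4% and 34.5% of all genes.

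**Figure D1:**
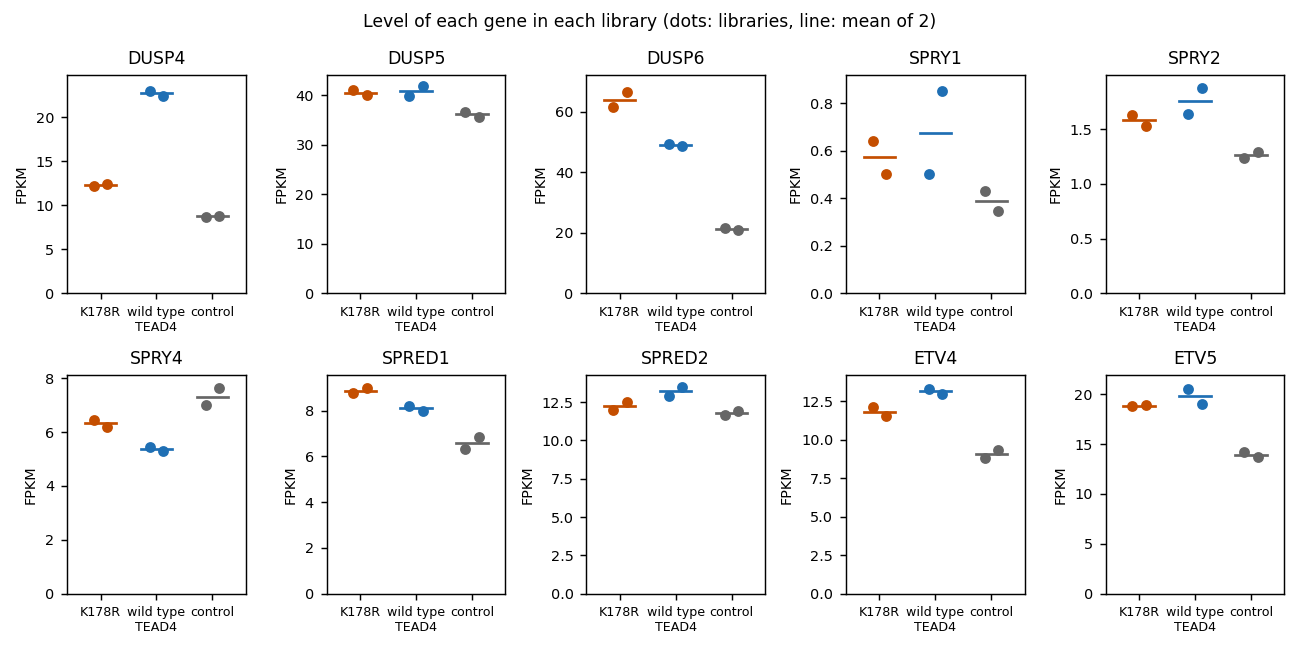
FPKM (vertical axes, from 0) of each of the 10 genes in the K178R, wild type TEAD4 and control lines. Dots are single libraries and lines are means of 2. DUSP6 was highest in K178R (61.4 and 66.5 FPKM), DUSP4 was highest in wild type (23.0 and 22.5 FPKM), and SPRY4 was highest in control.

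The phosphatases DUSP6 and DUSP4 changed most, and the lines ordered them differently. DUSP6 read 61.4 and 66.5 FPKM in the K178R line, 49.3 and 48.6 in the wild type line, and 21.5 and 20.9 in control. The groups did not overlap, with K178R on top and control at the bottom. DUSP6 rose 3.02-fold in mean FPKM with K178R (log2 1.55, SE 0.04, limma adjusted p = 1.13e-06) and 2.31-fold with wild type TEAD4 (log2 1.17, SE 0.04, adjusted p = 3.78e-06). It was also higher in K178R than in wild type (ratio of means 1.31, log2 0.38, 95% interval 0.28 to 0.48, adjusted p = 0.000534).

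DUSP4 read 12.2 and 12.4 FPKM in the K178R line, 23.0 and 22.5 in the wild type line, and 8.73 and 8.83 in control. Here wild type stood apart on top and K178R lay nearer to control, again with no overlap. DUSP4 rose 1.40-fold with K178R (log2 0.44, SE 0.04, limma adjusted p = 0.000211) and 2.59-fold with wild type TEAD4 (log2 1.28, SE 0.04, adjusted p = 1.55e-06). K178R held 0.540 of the DUSP4 level of wild type (log2 -0.84, 95% interval -0.92 to -0.75, adjusted p = 2.07e-05). The calls of DUSP4 and DUSP6 held in all 3 comparisons under all 15 alternative settings. Settings that left out a library, or averaged the control libraries, left 1 arm with a single sample, which was assumed to vary like the other groups.

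The ratio of DUSP6 to DUSP4 was 5.05 and 5.36 in the K178R libraries, 2.14 and 2.16 in the wild type libraries, and 2.46 and 2.37 in control. It was thus highest in K178R and lowest in wild type, and this ratio was not tested. DUSP5, the nuclear ERK phosphatase, was the most abundant of the 3 in control and moved least. It read 41.0 and 40.1 FPKM in K178R, 39.8 and 41.8 in wild type, and 36.7 and 35.7 in control. Both TEAD4 lines lay above control and overlapped each other. DUSP5 was higher with K178R (log2 0.16, limma adjusted p = 0.0167) and with wild type TEAD4 (log2 0.17, adjusted p = 0.00599). The K178R call was lost when any 1 library of the 2 lines was left out (adjusted p = 0.0524 and 0.093 on leaving out control replicates 1 and 2, and 0.0863 and 0.0513 on leaving out K178R replicates 1 and 2). The wild type call was lost after median-of-ratios scaling (log2 0.05, adjusted p = 0.282) and upper-quartile scaling (log2 0.06, adjusted p = 0.183). Between the lines the difference was -0.01 on the log2 scale (95% interval -0.09 to 0.07).

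**Figure D2:**
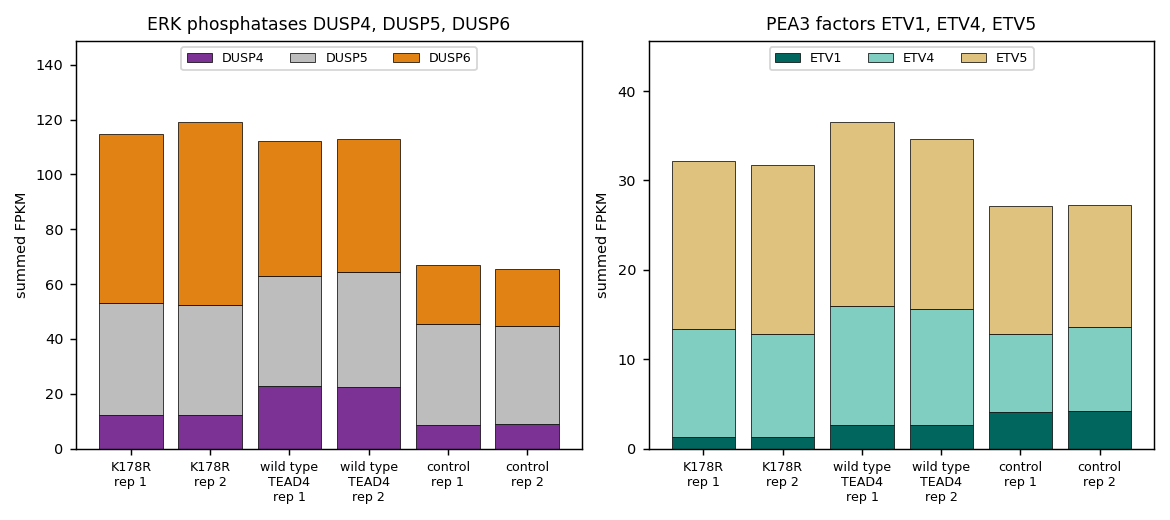
Summed FPKM (vertical axes, from 0) in each of the 6 libraries, stacked by gene, for DUSP4, DUSP5 and DUSP6 (left) and for ETV1, ETV4 and ETV5 (right). The 3 phosphatases summed to 115 and 119 FPKM in K178R, 112 and 113 in wild type, and 66.9 and 65.4 in control, and the ETV1 portion was smallest in K178R.

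Summed over DUSP4, DUSP5 and DUSP6, the level was 115 and 119 FPKM in K178R, 112 and 113 in wild type, and 66.9 and 65.4 in control. DUSP6 made up 53.6% and 55.9% of that sum in K178R, 43.96% and 43.02% in wild type, and 32.1% and 31.9% in control. DUSP4 made up 10.6% and 10.4% in K178R, 20.5% and 19.9% in wild type, and 13.1% and 13.5% in control. The sums of the TEAD4 lines were thus close, with a different make-up. DUSP6 lies on the minus strand of chromosome 12 from 89347232 to 89353271 (GRCh38, GENCODE release 29). There an annotated RNA of the plus strand, AC024909.2, overlaps 1875 bases of its exons. Whether the authors' counting used strand is not given in the sources used here, so reads of the pair cannot be told apart in DUSP6. DUSP4 (chromosome 8, 29333064 to 29350668, minus strand) and DUSP5 (chromosome 10, 110497838 to 110511544, plus strand) overlap no exon of another annotated gene.

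ETV4 and ETV5 rose together in both TEAD4 lines. ETV4 read 12.1 and 11.5 FPKM in K178R, 13.3 and 13.0 in wild type, and 8.79 and 9.32 in control. Control lay below both lines with no overlap. ETV4 rose with K178R (ratio of means 1.30, log2 0.35, SE 0.05, limma adjusted p = 0.00198) and with wild type TEAD4 (1.45, log2 0.49, SE 0.05, adjusted p = 0.000198). ETV5 read 18.8 and 18.9 FPKM in K178R, 20.5 and 19.0 in wild type, and 14.2 and 13.7 in control. It too had control at the bottom. ETV5 rose with K178R (ratio of means 1.35, log2 0.41, SE 0.04, adjusted p = 0.000907) and with wild type TEAD4 (1.42, log2 0.48, SE 0.04, adjusted p = 0.00021). These 4 calls held under all 15 alternatives.

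K178R had less ETV4 than the wild type line (log2 -0.14, 95% interval -0.25 to -0.03, limma adjusted p = 0.0387). That call was lost in 9 of 15 alternatives, among them median-of-ratios scaling (log2 -0.04, adjusted p = 0.549), the replicate block (adjusted p = 0.057) and the omission of any library of the 2 lines (adjusted p = 0.146 and 0.0796 on leaving out wild type replicates 1 and 2, and 0.0523 and 0.181 on leaving out K178R replicates 1 and 2). For ETV5 the lines did not differ past the threshold (log2 -0.06, 95% interval -0.17 to 0.04, adjusted p = 0.273). Exons of ETV4 and ETV5 overlap those of DHX8 by 68 bases and of DGKG by 119 bases.

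ETV1, the other PEA3 factor, went the other way from ETV4 and ETV5. It read 1.31 and 1.28 FPKM in K178R, 2.67 and 2.69 in wild type, and 4.08 and 4.26 in control. The groups did not overlap, and K178R was lowest. ETV1 fell with K178R to 0.310 of the control mean (log2 -1.17, SE 0.05, limma adjusted p = 1.11e-05) and with wild type TEAD4 to 0.642 of it (log2 -0.49, SE 0.05, adjusted p = 0.000372). In K178R it was below wild type (log2 -0.68, SE 0.05, adjusted p = 0.000167). ETV1 supplied 4.06% and 4.03% of the summed PEA3 FPKM in K178R, 7.30% and 7.76% in wild type, and 15.1% and 15.6% in control.

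SPRY4 was the 1 gene of the 10 that fell. It read 6.44 and 6.20 FPKM in K178R, 5.44 and 5.30 in wild type, and 6.99 and 7.62 in control. Control was highest and wild type lowest, with no overlap. With wild type TEAD4 the mean fell to 0.735 of control (log2 -0.38, SE 0.05, limma adjusted p = 0.00103), a call held under all 15 alternatives. With K178R it was 0.865 of control (log2 -0.18, SE 0.05, adjusted p = 0.0452). That call passed in 4 of 15 alternatives. It was lost with the replicate block (adjusted p = 0.0681) and when any 1 of the 6 libraries was left out. Without a single library the adjusted p was 0.0524 and 0.21 (control replicates 1 and 2), 0.0594 and 0.059 (wild type replicates 1 and 2), and 0.0964 and 0.176 (K178R replicates 1 and 2). SPRY4 was higher in K178R than in wild type (log2 0.20, 95% interval 0.08 to 0.32, adjusted p = 0.0184), but not without wild type replicate 2 (adjusted p = 0.0765) or K178R replicate 1 (adjusted p = 0.0897).

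The other Sprouty genes were low. SPRY2 read 1.63 and 1.53 FPKM in K178R, 1.63 and 1.87 in wild type, and 1.24 and 1.29 in control. Both TEAD4 lines lay above control. SPRY2 rose with wild type TEAD4 (ratio of means 1.39, log2 0.28, SE 0.07, limma adjusted p = 0.0104), though not without control replicate 1 (adjusted p = 0.0549) or wild type replicate 2 (adjusted p = 0.0621). With K178R the difference was 0.19 on the log2 scale (adjusted p = 0.0811).

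SPRY1 read 0.643 and 0.503 FPKM in K178R, 0.501 and 0.851 in wild type, and 0.432 and 0.346 in control, and was not called in any comparison (limma adjusted p = 0.28, 0.078 and 0.55 for K178R against control, wild type against control and K178R against wild type). The values of the TEAD4 lines overlapped each other and lay above control. Even if all SPRY1 reads came from its longest coding transcript of 2608 bases, its values would rest on only about 22 to 48 fragments a library, so small changes of SPRY1 were not detectable at this depth. SPRY1 reached 0.5 FPKM in the TEAD4 lines only, so it passed the filter through the lines where it was higher. Summed over SPRY1, SPRY2 and SPRY4, the level was 8.71 and 8.23 FPKM in K178R, 7.57 and 8.03 in wild type, and 8.66 and 9.26 in control.

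SPRED1 rose in both lines. It read 8.77 and 8.98 FPKM in K178R, 8.21 and 8.004 in wild type, and 6.35 and 6.85 in control. Control was lowest and K178R highest, without overlap. SPRED1 rose with K178R (ratio of means 1.34, log2 0.38, SE 0.05, limma adjusted p = 0.00182) and with wild type TEAD4 (1.23, log2 0.26, SE 0.05, adjusted p = 0.00361), and both calls held under all 15 alternatives. Between the lines the difference was 0.12 on the log2 scale (95% interval 0.00 to 0.23, adjusted p = 0.0853), and it passed after median-of-ratios scaling (log2 0.22, adjusted p = 0.0111) and upper-quartile scaling (log2 0.20, adjusted p = 0.0154).

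SPRED2 read 12.0 and 12.5 FPKM in K178R, 12.9 and 13.5 in wild type, and 11.7 and 11.9 in control. The groups lay close together without overlap. With K178R the difference was 0.05 on the log2 scale (95% interval -0.05 to 0.15, limma adjusted p = 0.417). With wild type TEAD4 it was 0.15 (adjusted p = 0.0196), a call that ended after median-of-ratios scaling (log2 0.04, adjusted p = 0.496) and upper-quartile scaling (log2 0.05, adjusted p = 0.349). It also ended without control replicate 1 (adjusted p = 0.0887), control replicate 2 (adjusted p = 0.0579) or wild type replicate 2 (adjusted p = 0.103).

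**Figure D3:**
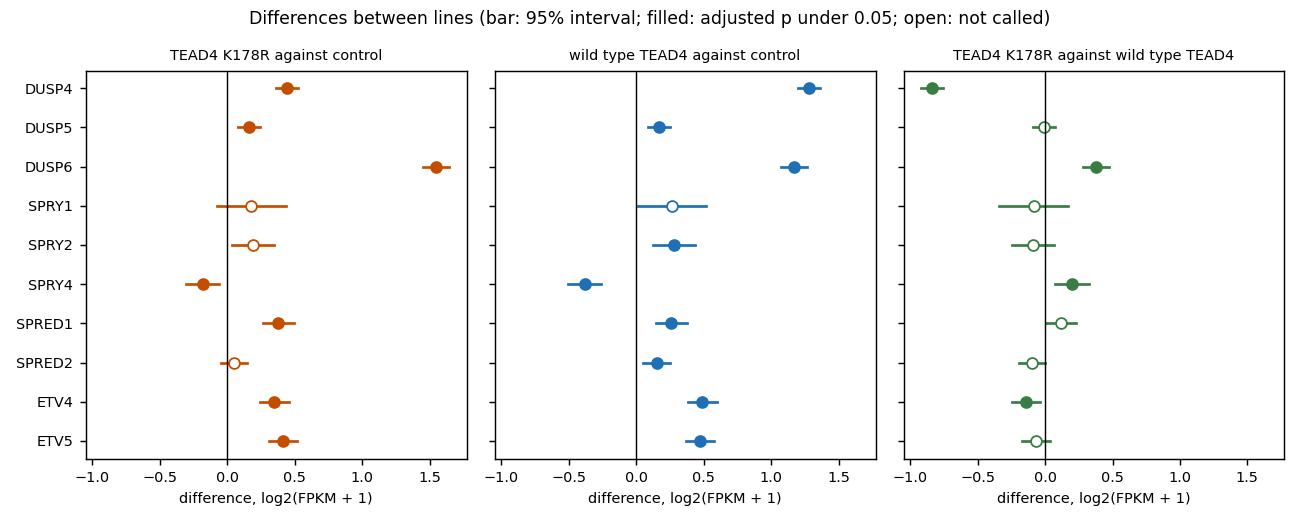
Difference on the log2(FPKM + 1) scale (horizontal axes) of each gene in the 3 comparisons, with 95% intervals; filled dots have an adjusted p under 0.05 and open dots do not. DUSP6 (1.55 and 1.17) and DUSP4 (0.44 and 1.28) stand out against control, and the intervals of SPRY4 lie below 0 in both lines.

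Within a line the 10 genes spanned a wide range of levels. In control the order of means was DUSP5 (36.2 FPKM), DUSP6 (21.2), ETV5 (13.9), SPRED2 (11.8), ETV4 (9.06), DUSP4 (8.78), SPRY4 (7.31), SPRED1 (6.60), SPRY2 (1.26) and SPRY1 (0.389). There only ETV4 and DUSP4, as neighbours, had overlapping library values. In K178R DUSP6 (63.97 FPKM) stood above DUSP5 (40.5), and SPRED2 (12.3) overlapped both of its neighbours, DUSP4 (12.3) and ETV4 (11.8). In wild type DUSP6 (48.9) also led DUSP5 (40.8), DUSP4 (22.7) came before ETV5 (19.8), and SPRED2 (13.2) and ETV4 (13.1) overlapped. Over all 10 genes the summed FPKM was 175.01 and 179.18 in K178R, 174.59 and 174.41 in wild type, and 116.59 and 116.45 in control.

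RefSeq promoter windows (GRCh38.p14, 250 bases before to 50 after a gene start) matched 6 of the 10 genes with 10 windows. They were searched on both strands for GGAATG, the core bound by TEAD factors, CCGGAA, an ETS core, TGANTCA for AP-1, and TGAATGAA and TGAATGGA for CIC. Over all 35116 windows these letters were found in 14.0%, 17.2%, 7.71%, 1.65% and 1.03%. In 6 of the 10 windows, including those of DUSP6 and SPRED1, none was found, and no match overlapped another. The matches of SPRY4, the gene that fell, and of SPRY2 and SPRED2 are shown as 30 bases each, with the motif in capitals. The TEAD core of SPRY4 lies on the strand opposite to the gene, at base 2 of the window's gene start. SPRY2 has an ETS core at base -142 and SPRY1 one at base -67. SPRED2 has 2 AP-1 matches in 1 of its 2 windows, at bases -6 and 35, and the first is shown. That window (65366729 to 65367028) lies inside the gene, which GENCODE release 29 places at 65310851 to 65432637 on the minus strand. The matched windows of SPRY4 and SPRY1 also lie inside their annotated genes.
SPRY4, chr5:142324229-142324258, plus strand: ggagagggagtaGGAATGcccagtcctgag
SPRY2, chr13:80341251-80341280, minus strand: tccctgcctcctCCGGAAaggcgagggcgc
SPRED2, chr2:65366767-65366796, minus strand: ctaaccctcggaTGACTCAtccggtacaat
These are matches of letters only, and no binding was measured.

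Genes with the most similar profile were found over the 6 libraries by Euclidean distance between centred log2(FPKM + 1) values, and are given for DUSP6 and DUSP4, whose group means ranged most widely. The nearest to DUSP6 was the homeobox gene HOXB9 (distance 0.201), with mean levels of 20.2 FPKM in K178R, 17.1 in wild type and 6.21 in control. ARSK (0.216) and RDH10 (0.226), a retinol dehydrogenase, followed. The nearest to DUSP4 was ID3, an inhibitor of DNA binding (distance 0.107), at 82.6 FPKM in K178R, 145 in wild type and 61.3 in control. RAB37 (0.142) and GGT1 (0.177) came next.

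Among 17 other brakes on RAS and MAP kinase signalling, some of which act mainly on JNK and p38 (DUSP8, DUSP10 and DUSP16), 14 were tested. Against control, 2 were higher (14.3%) and 0 lower in K178R, against 11.7% and 11.1% of all genes, and 5 were higher (35.7%) and 1 lower (7.14%) in wild type, against 37.6% and 12.2% of all genes. The shares of higher genes were thus near those of all genes. DUSP16, a phosphatase of the JNK and p38 kinases, read 1.98 and 2.04 FPKM in K178R, 3.69 and 4.16 in wild type, and 1.86 and 1.58 in control. It rose with wild type TEAD4 (log2 0.86, limma adjusted p = 0.000154) and K178R lay below the wild type line (log2 -0.71, adjusted p = 0.00047), as for DUSP4. IL17RD, also called SEF, rose with wild type TEAD4 (log2 0.32, adjusted p = 0.00406) and K178R again lay below (log2 -0.37, adjusted p = 0.00283). DUSP8, a JNK and p38 phosphatase, was higher with wild type TEAD4 (log2 0.47, adjusted p = 0.0165), but not on leaving out control replicate 1 (adjusted p = 0.0565) or 2 (adjusted p = 0.0801). Between the lines 2 brakes were higher and 3 lower in K178R, the third being LZTR1, a RAS degradation adaptor (log2 -0.27, adjusted p = 0.00172). These counts are 14.3% and 21.4% of the list, against 10.4% and 34.5% of all genes. The 2 higher became 6 after median-of-ratios scaling, while over all genes 1187 became 2602. They were fewer on leaving out any library of these lines, as were such calls over all genes. The K178R calls against control were DUSP2 (log2 0.22) and ERRFI1 (log2 0.11). ERRFI1 lost its call when any control or K178R library was left out, and DUSP2 when any of these but control replicate 2 was. The wild type count of 5 was 3 after median-of-ratios scaling, while over all genes 4309 became 2564. It was also smaller when control replicate 1 was left out. The 1 lower gene became 3 under that scaling, while over all genes 1402 became 2886. No gene of the list was called lower when control replicate 1 or wild type replicate 1 was left out. In these settings with a library left out, the calls over all genes were fewer too.

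Of 32 receptors, adaptors and kinases of the cascade, 31 were tested. Against control, 4 were higher (12.9%) and 2 lower (6.45%) in K178R, and 9 were higher (29%) and 3 lower (9.68%) in wild type. The share of higher genes was near that of all genes in K178R (11.7%) and below it in wild type (37.6%). The median difference was 0.03 in K178R and 0.07 in wild type, against 0.0025 and 0.09 over all genes. EGFR fell with K178R (log2 -0.42, limma adjusted p = 0.00191) and stood at 3.49 and 3.76 FPKM there, 4.19 and 4.37 in wild type, and 5.07 and 5.31 in control. The scaffold gene KSR1 (log2 0.52, adjusted p = 0.00101) and the kinase genes MKNK2 (log2 0.48, adjusted p = 7.64e-05) and RPS6KA1 (log2 0.41, adjusted p = 0.000467) rose with wild type TEAD4. RPS6KA1 (log2 0.22) and the receptor gene FGFR4 (log2 0.22) were also called with K178R. RPS6KA1 lost that call without control replicate 1 (adjusted p = 0.0602), control replicate 2 (adjusted p = 0.0762) or K178R replicate 1 (adjusted p = 0.0793). FGFR4 lost it without any control or K178R library (adjusted p = 0.0505 to 0.118). Between the lines 0 cascade genes were higher and 8 lower (25.8%) in K178R, against 10.4% and 34.5% of all genes. The share of lower genes was thus below that of all genes. Among the 8 were MKNK2 (log2 -0.54), KSR1 (log2 -0.49) and MAPK3 (log2 -0.34). After median-of-ratios scaling 6 were higher and 3 lower. Over all genes that scaling moved the counts from 1187 and 3952 to 2602 and 2257. The count of 4 higher in K178R than in control fell without either control library or K178R replicate 1. The count of 2 lower fell without control replicate 2 or either K178R library. The count of 3 lower in wild type fell when control replicate 2 or wild type replicate 1 was left out. The count of 8 lower in K178R than in wild type fell without either wild type library or K178R replicate 2. In each of these settings the calls over all genes were fewer too.

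Of 14 listed EGF and FGF ligands, 9 were tested. Against control, 6 were higher (66.7%) and 2 lower (22.2%) in K178R, against 11.7% and 11.1% of all genes. In wild type 7 were higher (77.8%) and 0 lower, against 37.6% and 12.2% of all genes. The median log2 was 0.38 in K178R and 0.51 in wild type, against 0.0025 and 0.09 over all genes. EPGN read 1.58 and 2.02 FPKM in K178R, 4.33 and 4.46 in wild type, and 0.0781 and 0.123 in control. EPGN passed the filter only through the TEAD4 lines, where it was high, yet it is in the counts and medians above. A filter of at least 1 FPKM in all 6 libraries leaves EPGN out. Under it 4 ligands were higher and 2 lower in K178R, against 1263 and 1232 of all genes. In wild type 5 ligands were higher and 0 lower under it, against 3778 and 1351 of all genes. With no filter, over a larger set of genes, 6 ligands were higher and 4 lower in K178R, against 1055 and 927 of all genes. In wild type 7 ligands were higher and 1 lower there, against 4116 and 1279 of all genes. The tests of EPGN against control are therefore given from that fit. There it rose with K178R (log2 1.34, limma adjusted p = 0.00233) and wild type TEAD4 (log2 2.29, adjusted p = 0.000521). With the filter, K178R lay below the wild type line (log2 -0.95, adjusted p = 0.000236). The control values of EPGN rest on few fragments. HBEGF rose about equally in both lines (log2 0.67 with K178R and 0.68 with wild type TEAD4, adjusted p = 0.000679 and 0.000294). EREG was higher in K178R (189 and 193 FPKM) than in wild type (171 and 169 FPKM), and control had 143 and 144 FPKM. TGFA rose with wild type TEAD4 (log2 0.65, adjusted p = 6.6e-05), and K178R lay below it (log2 -0.44, adjusted p = 0.000425). Between the lines 1 ligand was higher (11.1%) and 5 were lower (55.6%) in K178R, against 10.4% and 34.5% of all genes. Of the FGF genes, FGF2 fell with K178R (log2 -0.40, adjusted p = 0.00557). The 2 lower ligands in K178R against control were fewer without control replicate 2, as were the lower calls over all genes.

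Of 23 other genes known to respond to ERK, 22 were tested. Against control, 7 were higher (31.8%) and 5 lower (22.7%) in K178R, against 11.7% and 11.1% of all genes. In wild type 10 were higher (45.5%) and 4 lower (18.2%), against 37.6% and 12.2% of all genes. The 4 became 7 after median-of-ratios scaling, while over all genes 1402 became 2886. The median log2 was 0.07 in K178R and 0.10 in wild type, against 0.0025 and 0.09 over all genes, so in wild type it was near that of all genes. The immediate early factor EGR1 read 19.5 and 20.04 FPKM in K178R, 11.7 and 10.6 in wild type, and 8.88 and 9.68 in control. It rose with K178R (log2 1.02, limma adjusted p = 3.41e-05) and stood above the wild type line there (log2 0.77, adjusted p = 0.000147). UPP1 rose with K178R (log2 0.67, adjusted p = 0.000116). The kinase gene PLK3 (log2 0.74, adjusted p = 5.83e-05) and IER3 (log2 0.45, adjusted p = 9.96e-05) rose with wild type TEAD4, and the AP-1 subunit gene FOSL1 fell (log2 -0.47, adjusted p = 0.000397). The potassium channel gene KCNN4 fell with K178R (log2 -0.72, adjusted p = 0.000222). Between the lines 5 were higher (22.7%) and 6 lower (27.3%) in K178R, against 10.4% and 34.5% of all genes. KCNN4 (log2 -0.91) and PLK3 (log2 -0.66) were among the lower. The 5 higher became 10 after median-of-ratios scaling, while over all genes 1187 became 2602.

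**Figure D4:**
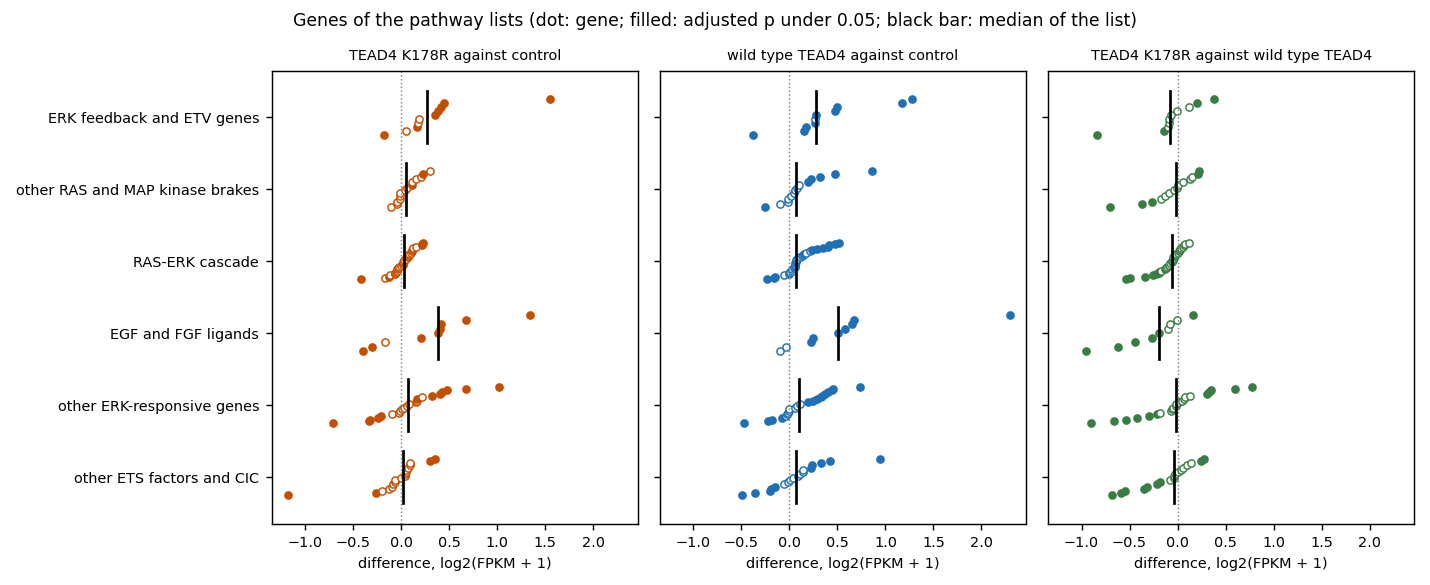
Difference on the log2(FPKM + 1) scale (horizontal axes) of every tested gene of the 10 and of the 5 pathway lists, in the 3 comparisons. Dots are genes, filled where the adjusted p was under 0.05, and black bars are medians. In the wild type panel the medians lie at 0.27 for the 10 genes, 0.51 for the ligands and 0.07 for the cascade. The median of all genes tested was 0.09 there. The ligand medians include EPGN, which passed the filter through the TEAD4 lines only.

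Among 26 other ETS factors and CIC with its partners, 18 were tested. Against control, 2 were higher (11.1%) and 2 lower (11.1%) in K178R, close to the 11.7% and 11.1% of all genes. In wild type 5 were higher (27.8%) and 5 lower (27.8%), against 37.6% and 12.2% of all genes. ELK3, an ETS factor controlled by ERK, read 12.5 and 12.7 FPKM in K178R, 19.7 and 19.2 in wild type, and 9.73 and 9.55 in control. It rose with K178R (log2 0.36, limma adjusted p = 0.000638) and with wild type TEAD4 (log2 0.94, adjusted p = 4.68e-06). The epithelial factor gene ELF3 rose with wild type TEAD4 (log2 0.42, adjusted p = 0.00101), and EHF was higher with K178R (log2 0.30, adjusted p = 0.0138), though not on leaving out control replicate 1 (adjusted p = 0.0715), control replicate 2 (adjusted p = 0.0633) or K178R replicate 2 (adjusted p = 0.079). Between the lines, ELK3 (log2 -0.58) and ELF3 (log2 -0.55) were among 7 genes lower in K178R (38.9%, against 34.5% of all genes). Another 2 were higher there (11.1%, against 10.4% of all genes). The 2 became 5 after median-of-ratios scaling, while over all genes 1187 became 2602. They were fewer on leaving out wild type replicate 2 or K178R replicate 2. The higher genes in K178R against control were fewer without either control library or K178R replicate 2. The lower were fewer without any 1 of those or K178R replicate 1. In wild type, the 5 higher became 3 after median-of-ratios scaling, while over all genes 4309 became 2564. The 5 lower were fewer when control replicate 2 or either wild type library was left out. In these settings with a library left out, the calls over all genes were fewer too.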

How the data were processed

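RNA was sequenced from 3 stable HCT116 lines, 2 libraries each, with a TruSeq kit from total RNA, per the labels' protocols. The authors deposited FPKM values, 1 table per library with 20030 rows. The submitters' processing notes name Bowtie 0.12.2 and the build hg18. No source used here gives the program behind the FPKM values, its annotation or its handling of strand. Date-like identifiers that occur more than once (4 rows) were left out.

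A gene was kept where 2 or more libraries reached 0.5 FPKM, which left 11445 genes. Differences were tested with limma 3.58.1 (R 4.3.3, trend on) on log2(FPKM + 1) of all 6 libraries, with 3 group means, two-sided, with Benjamini-Hochberg adjustment and a threshold of 0.05. The fit was tested on simulated data. Alternatives covered pseudocount, filters, scaling, samples in the fit, replicate block, trend, single libraries left out and averaged control libraries. In these last settings an arm holds 1 sample, and the spread comes from the other groups.

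Fragment numbers were approximated from FPKM times length, over genes with 1 coding transcript above 1500 bases in GENCODE release 29, whose lengths may not be the authors'. Named genes are all 10 members, the 3 largest called changes per pathway list and comparison, and 3 nearest profiles. ETV1, whose list is ETS factors, is named by that rule. The members, lists and tests were chosen with earlier results of these data known.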

Additional observations from a re-analysis of the deposited data

Results flagged for a closer look

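For 4 of the 10 genes the differences of the 2 TEAD4 lines from control were unequal by the direct test of K178R against wild type. Of the 10, 20% were higher and 20% lower in K178R, against 10.4% and 34.5% of all genes tested. Such calls were thus common over all genes and do not set the 10 apart. The difference was -0.84 for DUSP4 (limma adjusted p = 2.07e-05), 0.38 for DUSP6 (adjusted p = 0.000534), 0.20 for SPRY4 (adjusted p = 0.0184) and -0.14 for ETV4 (adjusted p = 0.0387), on the log2 scale. The calls of DUSP4 and DUSP6 held under all 15 alternatives. That of ETV4 held in 6 of 15 and was lost after median-of-ratios scaling (log2 -0.04, adjusted p = 0.549) and with the replicate block (adjusted p = 0.057). That of SPRY4 held in 13 of 15 and was lost without wild type replicate 2 (adjusted p = 0.0765) or K178R replicate 1 (adjusted p = 0.0897).

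A pair of pathway genes passed the test in opposite directions in the 2 lines. FGF2 was lower in K178R (log2 -0.40) and higher in wild type (log2 0.22) than in control, with a difference of -0.62 (limma adjusted p = 0.000501). The rise of FGF2 with wild type TEAD4 was lost after median-of-ratios scaling (adjusted p = 0.126) and without control replicate 2 (adjusted p = 0.142) or wild type replicate 2 (adjusted p = 0.137). KCNN4 was lower in K178R (log2 -0.72) and higher in wild type (log2 0.19), with a difference of -0.91 (adjusted p = 8.13e-05). The rise of KCNN4 with wild type TEAD4 was lost after median-of-ratios scaling (adjusted p = 0.285) and without control replicate 1 (adjusted p = 0.085), control replicate 2 (adjusted p = 0.116), wild type replicate 1 (adjusted p = 0.121) or wild type replicate 2 (adjusted p = 0.0617).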

How the results depend on the processing

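Of the calls of the 10 genes, 5 in K178R against control, 6 in wild type against control and 2 in K178R against wild type passed under all 15 alternatives. The 1 lower gene in K178R against control, SPRY4, became 0 with no filter, with only the 2 groups in the fit, with the replicate block, without trend, and with the control libraries averaged. In K178R against wild type, the 2 higher genes became 4 after median-of-ratios scaling. There the 2 lower genes became 1 with no filter, under either scaling, with the replicate block and without trend. Leaving out single libraries gave 5 to 6 higher and 0 lower genes in K178R against control, 6 to 9 higher and 1 lower in wild type against control, and 1 to 2 higher and 1 to 2 lower between the lines.

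Over all genes, single libraries left out gave 733 to 1285 higher and 633 to 1259 lower in K178R against control, 3223 to 4200 and 982 to 1338 in wild type against control, and 793 to 1102 and 2946 to 3775 in K178R against wild type. The main counts were 1342 and 1268, 4309 and 1402, and 1187 and 3952. With the control libraries averaged, 660 were higher and 568 lower in K178R against control. Median-of-ratios scaling gave 2564 higher and 2886 lower in wild type against control, and 2602 and 2257 in K178R against wild type. Upper-quartile scaling gave 2757 and 2654, and 2265 and 2510. Median-of-ratios scaling moved the median of all genes in wild type against control to -0.0087, against 0.09 without it.

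Some differences that were not called between K178R and wild type turned direction. DUSP5 became 0.1009 (median-of-ratios, adjusted p = 0.0489) and 0.0807 (upper-quartile), and ranged from -0.0435 to 0.0259 when single libraries were left out, with 0.0071 without K178R replicate 2. SPRY1 ranged from -0.2367 to 0.0661 likewise, SPRED2 became 0.005 (median-of-ratios), and ETV5 became 0.0423 (median-of-ratios) and 0.0226 (upper-quartile). The cause was not tested. Replicate numbers are shared by title only. The deviations of same-numbered libraries correlated at -0.031 to 0.032 across genes, so the numbers are not taken to pair the libraries, and with the replicate block only the calls of SPRY4 (K178R against control) and ETV4 (K178R against wild type) among the 10 genes were lost.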
